A study of Homo sapiens with 10 samples.

Results

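Ubiquitin-conjugating enzymes, or E2 enzymes, were measured as RNA in microvesicles shed by K562 cells and in the K562 cells themselves. The genes were taken by symbol: every probe set whose single annotated gene symbol starts with UBE2, apart from 1 gene not reported here, which gave 80 of 54630 probe sets and 31 of 19777 genes. Of the 31 genes, 25 code for proteins and 6 are pseudogenes or noncoding RNAs that carry a UBE2 symbol. Each gene was read from its brightest probe set, judged by the mean of the 10 arrays. UBE2D1, UBE2D2, UBE2D3, UBE2L3, UBE2M, UBE2V1 and UBE2W had no probe set of their own in the annotation used and were not analysed here.

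Ubiquitin is passed along a chain of enzymes. An E1 enzyme activates it, an E2 enzyme takes it over on a catalytic cysteine, and an E3 ligase brings the loaded E2 to the target protein. The E2 largely sets the kind of chain that is built and therefore what happens to the target, such as breakdown by the proteasome or recruitment of DNA repair proteins. Some members of the family carry ubiquitin-like proteins instead, among them NEDD8 and ISG15. In red cell precursors the ubiquitin system also clears proteins during maturation, and K562 cells have features of that lineage.

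The 2 groups were 5 preparations of microvesicles, small membrane vesicles released into the culture, and 5 preparations of the parental K562 cells, an established human line from a chronic myeloid leukaemia with the fusion gene BCR-ABL1, with no treatment named in the labels. Both came from 5 independent experiments, were extracted with Trizol, and were hybridised to 1 Affymetrix array each from the same mass of total RNA. How the vesicles were isolated is not given in the sources used here, and all samples come from 1 cell line. Because the input mass was equal, a smaller share of the RNA and a smaller amount per particle or cell cannot be told apart.

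All values are RMA expression values on the log2 scale, and every change is microvesicles minus cells on that scale, given ± SE from the limma fit over all 19777 genes. Genes were called at 0.05 after Benjamini-Hochberg adjustment over the whole table, and are said to have passed, risen or fallen only then. All 8 erythroid markers measured lay above the array medians in cells, with means of 6.19 to 12.09 in microvesicles and 5.92 to 12.28 in cells. Of these 8, 1 rose (EPOR, 0.79) and 3 fell (TFRC, -1.63, TAL1, -0.79, and GATA1, -0.61). The 5 lymphocyte, 3 monocyte and 4 platelet markers ran from 2.71 to 8.01 in microvesicles and from 2.22 to 8.18 in cells, and 2, 1 and 2 of them lay above the array medians in cells. Of these 12 markers of other cell types, 9 rose and 1 fell, where 35.5% of all genes rose and 31.2% fell. CD3E (0.90), MS4A1 (0.87), CSF1R (0.83) and GP9 (0.91) were among the rises, LYZ fell by 2.65 on the log2 scale, and CD3D, the brightest of them in both groups, did not pass (-0.17). CD3E, MS4A1 and CSF1R had means under 5 in both groups. Over all genes the median change in each unit of level under 5 was 0.53 to 0.63. The part of level in the rises of the markers was not tested. Control probe sets moved with the group. The 3' minus 5' difference of ACTB was 2.72 to 3.64 in microvesicles and 2.26 to 2.57 in cells, and the mean of the 18S ribosomal RNA controls was 10.23 to 11.13 in microvesicles and 11.70 to 12.32 in cells. The part of RNA quality in the changes below was not tested.

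UBE2 genes were mostly lower in microvesicles in the deposited values. Of the 31 genes, 16 fell and 4 rose, while 11 did not pass. The falls were 51.6% of the UBE2 genes, against 31.2% of all genes, and the rises were 12.9%, against 35.5% of all genes. The median change was -0.42, against 0.20 over all genes. Changes ran from -2.21 for UBE2Q2 to 1.10 for UBE2U. The groups did not overlap in 12 UBE2 genes that were lower, or 38.7% (26.1% of all genes), and in 2 that were higher, or 6.45% (23.8% of all genes). The fall reached 2-fold in 3 genes, or 9.68%, against 19.8% of all genes.

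**Figure D1:**
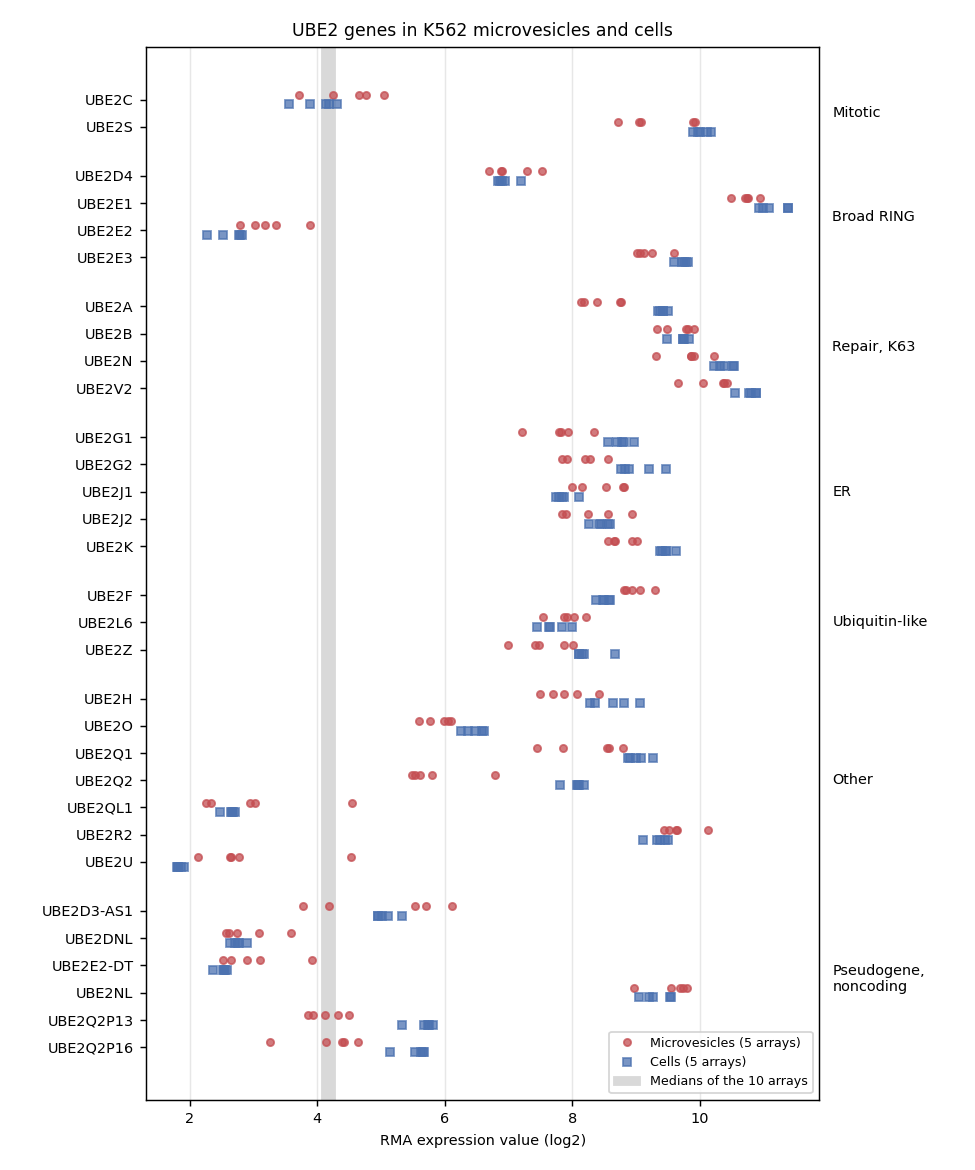
RMA values (log2, x axis) of the 31 UBE2 genes, grouped by role, on 5 microvesicle arrays (circles) and 5 cell arrays (squares), with the range of the array medians as a grey band. The microvesicle arrays of UBE2Q2 lie between 5.48 and 6.79, all below the cell arrays, while those of UBE2F lie between 8.81 and 9.29, all above them.

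This balance differed between scalings, and over all genes the median change differed between levels. The deposited arrays did not share 1 distribution. The SD of the values on an array was 1.89 to 1.99 in microvesicles and 2.33 to 2.36 in cells. The array medians were 4.22 to 4.28 in microvesicles and 4.08 to 4.12 in cells. UBE2 genes are bright: 17 of the 31 (54.8%) had a mean of at least 8 over the 10 arrays, against 14.6% of all genes. All 1298 genes with a mean between 8 and 9 had a median change of -0.81, close to the -0.75 of the 8 UBE2 genes in that range. The 816 genes between 9 and 10 had a median of -0.54, and the 6 UBE2 genes there had -0.28. At some other levels the UBE2 genes stood further from all genes. The medians were 0.11 for 3 UBE2 genes and -0.98 for all genes between 7 and 8. They were -1.38 for 2 UBE2 genes and -0.84 for all genes between 6 and 7. Between 4 and 5 they were -1.36 for 3 UBE2 genes and 0.53 for all genes. At the remaining levels that held UBE2 genes the medians were nearer. They were -0.56 for 3 UBE2 genes and -0.44 for all genes between 10 and 11. Between 5 and 6 they were -0.013 for 1 UBE2 gene and -0.070 for all genes. Under 3 they were 0.50 for 5 UBE2 genes and 0.63 for all genes. After loess by level, which subtracts from each array the part of its deviation that goes with level, 3 UBE2 genes fell (9.68%, against 22% of all genes) and 7 rose (22.6%, against 19.2%), with a median of -0.043 against 0.018 over all genes. A second quantile normalization gave 3 falls (18.7% of all genes) and 8 rises (20.2% of all genes), and left the median of all genes at 0.097.

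**Figure D2:**
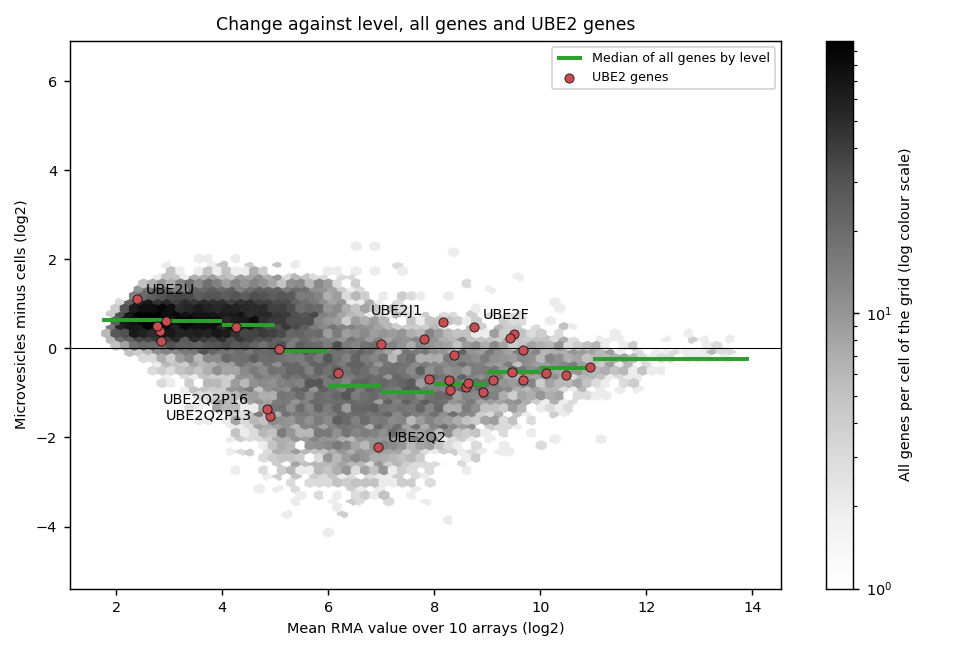
Change between microvesicles and cells (log2, y axis) against the mean RMA value over 10 arrays (log2, x axis). Grey cells count all 19777 genes on a log colour scale, green bars are the medians of all genes by level, and red points are the 31 UBE2 genes. Most UBE2 genes with a mean of at least 8 lie near the green bars. UBE2F, UBE2J1, UBE2R2, UBE2NL and UBE2J2 are among those above the bars, and so are the dimmer UBE2L6 and UBE2D4. UBE2Q2, also dimmer, lies below.

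Of the 31 genes, 4 passed in the same direction under every alternative run on them. These were UBE2Q2, its pseudogenes UBE2Q2P13 and UBE2Q2P16, and UBE2F. The alternatives were other scalings, filters, choices of probe set, tests and the loss of any 1 array. How many of all genes would pass in this way was not counted. Only UBE2F among the 4 has more than 1 probe set, so the choice of probe set left the values of the other 3 as they were. The pseudogenes have means under 5, so the filter on level was not run on them. UBE2Q2 codes for an E2 with a long N-terminal extension, and UBE2F for the E2 that hands NEDD8 to the cullin CUL5. The sequences upstream of the start of UBE2Q2 and of UBE2F are shown as the promoters of the protein-coding genes that kept their call in each direction. That of UBE2J1 is shown beside them because its brightest probe set rose, although its probe sets disagree. They are the 250 bases before the start in RefSeq (GRCh38.p14), read 5′ to 3′ on the strand of the gene, at chr15:75843197-75843446 (plus strand), chr2:237966764-237967013 (plus strand) and chr6:89352723-89352972 (minus strand). Capitals mark the GC box GGGCGG, the CCAAT box CCAAT and the cell cycle element TTTGAA on either strand.
UBE2Q2: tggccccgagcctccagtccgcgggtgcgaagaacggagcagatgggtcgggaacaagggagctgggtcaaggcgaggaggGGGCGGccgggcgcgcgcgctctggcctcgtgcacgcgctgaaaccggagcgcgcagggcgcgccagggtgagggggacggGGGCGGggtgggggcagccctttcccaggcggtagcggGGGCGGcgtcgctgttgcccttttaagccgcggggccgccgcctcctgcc
UBE2F: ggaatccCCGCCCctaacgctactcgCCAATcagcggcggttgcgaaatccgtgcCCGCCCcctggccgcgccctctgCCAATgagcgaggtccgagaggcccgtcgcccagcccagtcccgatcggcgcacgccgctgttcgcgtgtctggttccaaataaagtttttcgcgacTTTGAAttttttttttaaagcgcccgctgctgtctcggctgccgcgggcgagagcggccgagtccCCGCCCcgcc
UBE2J1: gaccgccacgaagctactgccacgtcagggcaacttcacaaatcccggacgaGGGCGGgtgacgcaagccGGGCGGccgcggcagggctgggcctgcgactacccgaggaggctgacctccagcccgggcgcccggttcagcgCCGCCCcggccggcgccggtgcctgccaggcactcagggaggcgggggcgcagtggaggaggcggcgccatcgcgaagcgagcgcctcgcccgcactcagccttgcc
The GC box occurs 3 times in each of these windows, and it was present in 16 of the 20 protein-coding UBE2 genes found in the promoter table and in 42.3% of all 27305 promoters. The CCAAT box stood in the UBE2F window alone of the 3, in 5 of the 20 UBE2 promoters and in 33% of all. The element TTTGAA stood in the UBE2F window as well, in 2 of the 20 UBE2 promoters and in 13.6% of all. The elements CACGTG (6.49% of all promoters), CCGGAAG (8.82%) and TATAAA (11.1%) were searched too and did not occur in these 3 windows. The arrays measure RNA and no binding at these sequences.

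UBE2Q2 had the largest fall of the family. Its values were 6.79, 5.48, 5.80, 5.53 and 5.61 in microvesicles replicates 1 to 5, against 7.81, 8.10, 8.18, 8.09 and 8.08 in cells replicates 1 to 5. The groups were more than 1 unit apart at their nearest arrays, with microvesicles replicate 1 nearest to the cells. The change was -2.21 ± 0.23 (4.62-fold lower, limma adjusted p = 6.21e-06), and -1.37 after loess. The related UBE2Q1 read 8.58, 7.86, 8.54, 8.80 and 7.44 in microvesicles, against 9.001, 9.07, 8.91, 9.27 and 8.87 in cells. Its groups did not overlap, but microvesicles replicate 4 came close to the lowest cell array. UBE2Q1 fell by 0.78 ± 0.24 on the log2 scale (limma adjusted p = 0.0123) and stood at -0.057 after loess.

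Both UBE2Q2 pseudogenes fell with it, at dimmer levels. UBE2Q2P13 read 4.49, 3.86, 4.33, 4.13 and 3.94 in microvesicles, against 5.68, 5.76, 5.82, 5.33 and 5.74 in cells (change -1.52 ± 0.17, limma adjusted p = 1.07e-05, -1.80 after loess). UBE2Q2P16 read 4.42, 4.64, 4.13, 3.25 and 4.39 in microvesicles, against 5.67, 5.63, 5.66, 5.14 and 5.53 in cells (change -1.36 ± 0.24, limma adjusted p = 0.000345, -1.67 after loess). In neither did the groups overlap, and the microvesicle means lay just under the array medians of 4.22 to 4.28. Each of the 3 genes rests on 1 probe set. The pseudogenes are copies of parts of UBE2Q2, so these probe sets may read related transcripts, which was not tested.

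UBE2F was higher in microvesicles, with 8.85, 9.07, 8.94, 9.29 and 8.81 there, against 8.49, 8.60, 8.57, 8.38 and 8.48 in cells. Every microvesicle array lay above every cell array. The rise was 0.49 ± 0.15 (1.40-fold, limma adjusted p = 0.0119), and 1.19 after loess. All 4 of its probe sets had a positive change, from 0.11 to 0.49, and 2 of them passed over all probe sets. Of the other carriers of ubiquitin-like proteins, UBE2L6, the E2 for the interferon-induced modifier ISG15, ran from 7.53 to 8.21 in microvesicles and from 7.44 to 7.99 in cells. Its change of 0.20 ± 0.17 did not pass (limma adjusted p = 0.304), but it passed at 1.05 after loess. UBE2Z, which is loaded by the E1 enzyme UBA6, ran from 6.99 to 8.02 in microvesicles and from 8.10 to 8.67 in cells, and fell by 0.68 ± 0.21 on the log2 scale (limma adjusted p = 0.0113). Its sign turned after loess, to 0.15.

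Among the E2 enzymes of mitosis, UBE2S was lower in microvesicles. UBE2S extends K11-linked chains on targets of the anaphase-promoting complex, and ran from 8.71 to 9.93 in microvesicles and from 9.89 to 10.17 in cells. Its groups overlapped, since microvesicles replicates 1 and 5 reached the cell values. It fell by 0.70 ± 0.23 on the log2 scale (limma adjusted p = 0.0176) and stood at -0.14 after loess. UBE2C, which starts those chains, was dim, at 3.71 to 5.05 in microvesicles and 3.56 to 4.31 in cells. Its change of 0.47 ± 0.24 did not pass (limma adjusted p = 0.102), and passed without microvesicles replicate 2 (0.66, limma adjusted p = 0.0142).

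The E2 enzymes of DNA repair and K63-linked chains had 3 falls among 4 genes (31.2% of all genes fell), and after loess only 1 of the 4 passed, UBE2B as a rise. UBE2A and UBE2B are the human counterparts of yeast Rad6, which modifies PCNA and histone H2B. UBE2A read 8.77, 8.18, 8.38, 8.74 and 8.13 in microvesicles, against 9.43, 9.34, 9.38, 9.42 and 9.50 in cells, with no overlap. It fell by 0.97 ± 0.17 on the log2 scale, or 1.96-fold (limma adjusted p = 0.00029), and it stood at -0.30 after loess (limma adjusted p = 0.167). UBE2B read 9.78, 9.48, 9.81, 9.91 and 9.32 in microvesicles, against 9.83, 9.74, 9.74, 9.48 and 9.73 in cells. The groups overlapped over nearly their whole range, and the change was -0.045 ± 0.16 (limma adjusted p = 0.811).

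UBE2N builds K63-linked chains together with UBE2V2, an E2 relative that lacks the catalytic cysteine. UBE2N read 10.22, 9.86, 9.91, 9.31 and 9.86 in microvesicles, against 10.22, 10.37, 10.31, 10.54 and 10.52 in cells, and microvesicles replicate 1 all but met cells replicate 1. UBE2V2 read 10.36, 10.43, 10.38, 9.66 and 10.05 in microvesicles, against 10.55, 10.88, 10.78, 10.80 and 10.88 in cells, with no overlap. The partners fell by similar amounts in the deposited values, 0.56 ± 0.18 for UBE2N and 0.60 ± 0.18 for UBE2V2 on the log2 scale (limma adjusted p = 0.014 and 0.0097). After loess they stood at -0.062 and -0.15, and neither passed. The pseudogene UBE2NL, a copy of UBE2N, was read by a bright probe set of the type that can share probes, with 8.97 to 9.80 in microvesicles and 9.05 to 9.54 in cells. Its change of 0.23 ± 0.19 did not pass (limma adjusted p = 0.286; 0.83 and passed after loess), and whether it reads UBE2N was not tested. The probe set of UBE2N used here is of that type too. The only probe set of UBE2N that is not, a dimmer one, changed by -2.06 ± 0.21 (limma adjusted p = 4.64e-06 over all probe sets).

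Of the 5 E2 enzymes of degradation at the endoplasmic reticulum and of K48-linked chains, 3 fell and 1 rose (31.2% and 35.5% of all genes), and after loess only the rise of UBE2J1 passed. UBE2G2, which serves ligases of the endoplasmic reticulum membrane, read 8.56, 7.91, 7.84, 8.28 and 8.20 in microvesicles, against 8.89, 8.83, 8.77, 9.47 and 9.20 in cells. UBE2G1 read 8.34, 7.21, 7.93, 7.83 and 7.80 in microvesicles, against 8.77, 8.81, 8.71, 8.97 and 8.56 in cells. In both genes every microvesicle array lay below every cell array, with falls of 0.87 ± 0.19 for UBE2G2 and 0.94 ± 0.20 for UBE2G1 on the log2 scale (limma adjusted p = 0.00168 and 0.00114). After loess neither passed, at -0.14 and -0.16. UBE2K, which builds K48-linked chains, ran from 8.56 to 9.01 in microvesicles and from 9.37 to 9.62 in cells, with a change of -0.70 ± 0.15 (limma adjusted p = 0.00132). It stood at -0.057 after loess and did not pass there (limma adjusted p = 0.798). Its 3 probe sets all fell but by unequal amounts, and the dimmer ones changed by -1.48 and -2.52.

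UBE2J1 and UBE2J2 are anchored in the endoplasmic reticulum membrane. UBE2J1 read 8.15, 8.81, 8.79, 8.53 and 7.997 in microvesicles, against 8.10, 7.86, 7.84, 7.79 and 7.74 in cells. Only microvesicles replicate 5 lay below the highest cell array. The change in this probe set was a rise of 0.59 ± 0.19 (limma adjusted p = 0.0147; 1.39 after loess). The gene has 6 probe sets that disagreed: 3 were lower and 2 higher past the threshold over all probe sets, and their mean was -0.23. UBE2J2 ran from 7.84 to 8.93 in microvesicles and from 8.27 to 8.59 in cells and did not pass (-0.16 ± 0.21, limma adjusted p = 0.508), while its 3 dimmer probe sets all rose, by 0.58 to 0.85.

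Of the 4 E2 enzymes that work with many RING ligases, 2 fell and 1 rose (31.2% and 35.5% of all genes), and after loess only UBE2D4 passed, as a rise. UBE2E1, the brightest member, read 10.76, 10.71, 10.94, 10.49 and 10.74 in microvesicles, against 10.92, 11.38, 11.39, 11.08 and 10.99 in cells. Microvesicles replicate 3 overlapped the cells, and the fall of 0.43 ± 0.16 on the log2 scale passed narrowly (limma adjusted p = 0.0316) and was lost without cells replicate 2 (0.0902), cells replicate 3 (0.0904) or microvesicles replicate 4 (0.0543). It did not pass after loess (-0.043, limma adjusted p = 0.849), with the mean of its probe sets (-0.021, limma adjusted p = 0.900) or with array weights (limma adjusted p = 0.0815). UBE2E3 ran from 9.01 to 9.60 in microvesicles and from 9.59 to 9.81 in cells and fell by 0.52 ± 0.16 on the log2 scale (limma adjusted p = 0.0103; 0.073 after loess). UBE2E2 was dim, at 3.36, 3.89, 2.78, 3.03 and 3.18 in microvesicles, against 2.27, 2.79, 2.82, 2.77 and 2.52 in cells. It rose by 0.61 ± 0.21 (limma adjusted p = 0.0198), with microvesicles replicate 3 inside the range of the cells. The call was lost without cells replicate 1 (limma adjusted p = 0.0579) and in the exact rank sum test (0.0508), and the change was 0.0035 after loess. All its values lie under the array medians, and whether they exceed background is unknown because no detection calls were used. UBE2D4, a member of the UBE2D family, ran from 6.69 to 7.52 in microvesicles and from 6.83 to 7.20 in cells, and did not pass (0.11 ± 0.18, limma adjusted p = 0.605; 0.95 and passed after loess).

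Of the remaining protein-coding members, UBE2H and UBE2O both have known parts in red cell maturation. UBE2H, the E2 of the CTLH ligase complex, read 7.49, 7.87, 8.08, 8.41 and 7.69 in microvesicles, against 8.64, 8.81, 9.06, 8.28 and 8.36 in cells, and fell by 0.72 ± 0.21 on the log2 scale (limma adjusted p = 0.00906). Microvesicles replicate 4 overlapped with the cells, and the change turned to 0.064 after loess. UBE2O, a large enzyme that acts as E2 and E3 in one, read 5.99, 6.06, 6.10, 5.59 and 5.77 in microvesicles, against 6.47, 6.36, 6.26, 6.62 and 6.59 in cells. It fell by 0.56 ± 0.16 on the log2 scale in this probe set (limma adjusted p = 0.00789; 0.0032 after loess), while its other probe set rose by 0.9996 ± 0.24. UBE2R2, a relative of CDC34 that serves cullin ligases, ran from 9.44 to 10.12 in microvesicles and from 9.12 to 9.49 in cells and did not pass (0.31 ± 0.17, limma adjusted p = 0.114; 0.90 and passed after loess). The other, dimmer probe set of UBE2R2 fell by 0.73 ± 0.17 on the log2 scale (limma adjusted p = 0.00226 over all probe sets).

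UBE2U had the largest rise, at the bottom of the signal range. It read 2.77, 4.53, 2.13, 2.65 and 2.64 in microvesicles, against 1.80, 1.82, 1.82, 1.87 and 1.91 in cells. All microvesicle arrays were above all cell arrays, replicate 2 by far the most (change 1.10 ± 0.34, limma adjusted p = 0.0128; 0.51 and not passed after loess). UBE2QL1 was as dim, at 2.26 to 4.54 in microvesicles and 2.47 to 2.71 in cells, and did not pass (0.39 ± 0.34, limma adjusted p = 0.326; 0.0052 without microvesicles replicate 5). Its other probe set rose by 1.38 ± 0.25 (limma adjusted p = 0.000436 over all probe sets), and the mean of both passed at 0.88 (limma adjusted p = 0.00292). In all, 7 members had a microvesicle mean under the median of the microvesicle arrays and 6 a cell mean under that of the cell arrays. The noncoding RNAs UBE2D3-AS1 (-0.013 ± 0.38) and UBE2E2-DT (0.50 ± 0.23) and the pseudogene UBE2DNL (0.17 ± 0.20) did not pass (limma adjusted p = 0.977, 0.0691 and 0.444). UBE2D3-AS1 lay between 3.78 and 6.11 in microvesicles, against 4.96 to 5.33 in cells.

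**Figure D3:**
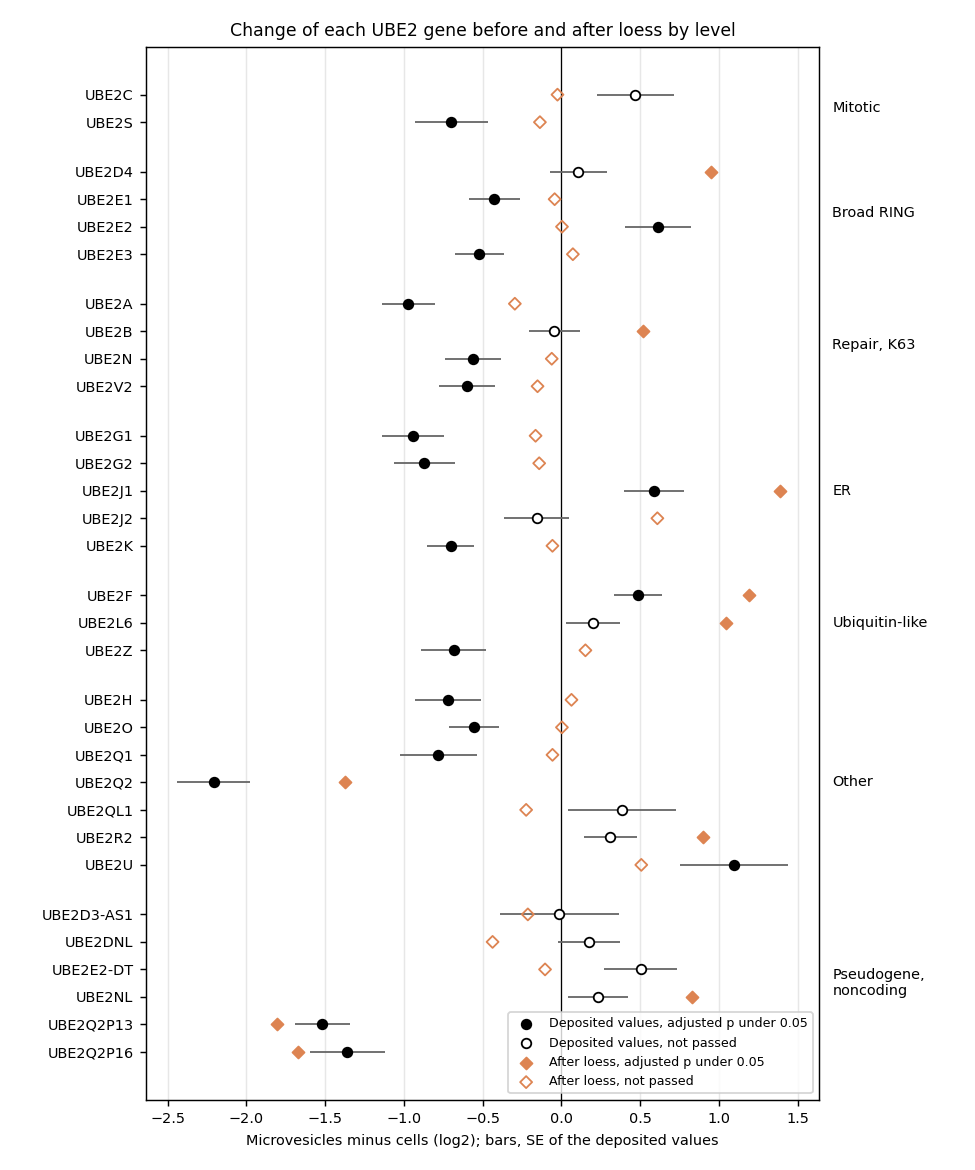
Change of each UBE2 gene between microvesicles and cells (log2, x axis), with the deposited values as circles with SE bars and the values after loess by level as diamonds, filled where the limma adjusted p is under 0.05. UBE2Q2, UBE2Q2P13 and UBE2Q2P16 are filled on the negative side in both scalings, and UBE2F and UBE2J1 on the positive side.

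The spread between preparations was larger in microvesicles. The SD over 5 arrays was larger in microvesicles than in cells for 29 of the 31 genes, with a median of 0.36 in microvesicles and 0.15 in cells. Over all genes the medians were 0.45 in microvesicles and 0.15 in cells. No microvesicle array was low or high throughout: the number of UBE2 genes that had their lowest microvesicle value on an array was between 4 and 9, and the number with their highest value there was between 4 and 9 too.

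Probe sets of a gene often disagreed in size. Among the 80 probe sets, 40 fell and 17 rose when each was tested by itself, or 50% and 21.2%, against 29.8% and 33.2% of all 41091 probe sets with 1 gene. Of the 19 UBE2 genes with more than 1 probe set, 5 had both a rising and a falling one, namely UBE2B, UBE2H, UBE2J1, UBE2O and UBE2Q1. How often this occurs among all genes with more than 1 probe set was not counted, so it may be no trait of the UBE2 genes. UBE2B had 7 probe sets, of which the brightest gave the change of -0.045 above. Its next 3 by level fell, with changes of -0.78, -0.66 and -1.69, and of the dim ones 1 rose by 1.17 and 1 fell by 1.77. UBE2H had 8, of which the 4 brightest changed by -0.72, -0.66, -0.73 and -0.93, while dimmer ones rose by 0.73 and 1.18. The 2 dim probe sets of UBE2Q1 changed by 0.85 and -1.41. In UBE2N and UBE2V2 the fall was steeper in a dimmer probe set, -2.06 and -2.08. Where on the transcripts these probe sets lie was not analysed here.

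**Figure D4:**
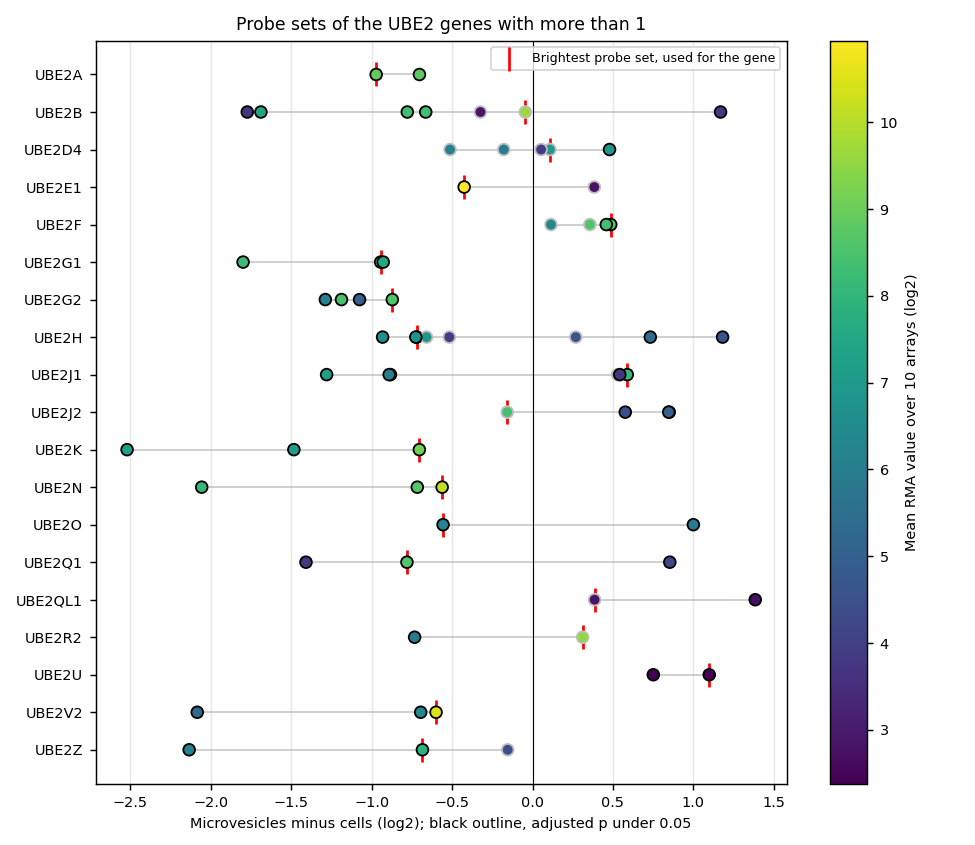
Change between microvesicles and cells (log2, x axis) of each probe set of the 19 UBE2 genes with more than 1, coloured by its mean RMA value over 10 arrays (log2), with a black outline where the adjusted p over all probe sets is under 0.05 and a red tick at the brightest probe set. UBE2F and UBE2G2 have all their probe sets on one side, while UBE2B and UBE2J1 spread over both.

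Close relatives were compared within each array, which cancels any shift that all genes of an array share. For 8 pairs the difference of the 2 genes was taken on each array and compared between microvesicles and cells by a 2-sided exact permutation test over 252 splits, adjusted over the 8 pairs. A pair that differs here means that the 2 genes changed by unequal amounts, and the difference itself says nothing of their relative levels. In 6 of the 8 pairs the changes differed.

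UBE2A fell more than UBE2B. The difference UBE2A minus UBE2B was -1.22 ± 0.15 in microvesicles and -0.29 ± 0.15 in cells (SD, n = 5 each), with no overlap (exact permutation p = 0.00794, the smallest possible, adjusted p = 0.0127). It held after loess, but not with the mean of each gene's probe sets, where the change was -0.25 (exact permutation test, adjusted p = 0.0726). UBE2Q1 minus UBE2Q2 was 2.40 ± 0.63 in microvesicles and 0.97 ± 0.21 in cells (SD, n = 5 each). That pair had an exact permutation p of 0.00794 (adjusted 0.0127) and differed under both other probe set choices and all scalings run. UBE2J1 minus UBE2J2 was 0.16 ± 0.35 in microvesicles and -0.59 ± 0.22 in cells (SD, n = 5 each), with an exact permutation p of 0.0159 (adjusted 0.0212). Its direction turned with the mean of probe sets, to -0.76 (exact permutation test, adjusted p = 0.0159).

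The pairs UBE2E1 and UBE2E2, UBE2E2 and UBE2E3, and UBE2C and UBE2S differed by -1.04 ± 0.22, 1.13 ± 0.24 and 1.17 ± 0.38 between the groups (SE, n = 5 each, exact permutation adjusted p = 0.0127 each). Each sets a dim gene against a bright one, and none of the 3 passed after loess, at -0.047, -0.069 and 0.11. For UBE2G1 and UBE2G2 the difference changed by -0.073 ± 0.18, and for UBE2E1 and UBE2E3 by 0.095 ± 0.16 (SE, n = 5 each, exact permutation adjusted p = 0.706 and 0.626), and neither passed. With 5 arrays a group, such a p does not show that the genes of these pairs changed alike.

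**Figure D5:**
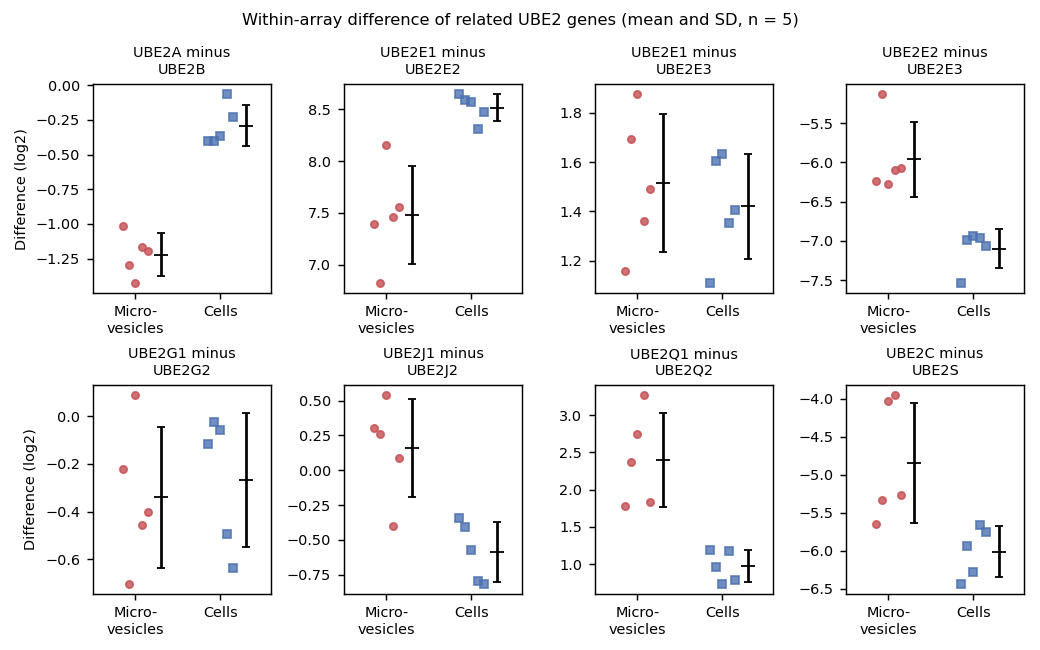
Within-array difference of the RMA values (log2, y axis, its own range in each panel) of 8 pairs of related UBE2 genes on 5 microvesicle arrays and 5 cell arrays, with mean and SD beside the points. UBE2A minus UBE2B lies lower in microvesicles and UBE2Q1 minus UBE2Q2 higher, both without overlap, while UBE2G1 minus UBE2G2 overlaps.

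Most genes listed for other parts of ubiquitin and ubiquitin-like conjugation, including genes with an E2 fold but another name, fell in the deposited values. Of 89 such genes measured in 9 lists, 63 fell and 4 rose, where 31.2% of all genes fell and 35.5% rose. After loess 33 fell and 14 rose, where 22% of all genes fell and 19.2% rose. UBB, which encodes ubiquitin as a chain of repeats, was 12.56 ± 0.15 in microvesicles and 13.27 ± 0.063 in cells (SD, n = 5 each) and fell by 0.70 ± 0.14 on the log2 scale (limma adjusted p = 0.000852; -0.60 after loess, passed). Of 6 E1 enzymes 4 fell, with a median of -1.17 (-0.55 after loess). The ubiquitin E1 genes UBA6 (-1.53 ± 0.20) and UBA1 (-1.46 ± 0.24) fell (limma adjusted p = 3.76e-05 and 0.000177). The mean of both UBA1 probe sets was -0.26 and did not pass.

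Of 8 genes with an E2 fold but another name, 4 fell, with a median of -0.29 (0.12 after loess, where 3 rose and 2 fell). BIRC6, a giant E2 that restrains apoptosis, fell by 2.06 ± 0.22 on the log2 scale (limma adjusted p = 6.38e-06; -1.20 after loess), and TSG101, an inactive E2 relative of the ESCRT machinery, by 0.89 ± 0.17 (limma adjusted p = 0.000716; -0.15 and not passed after loess). CDC34, the main E2 of cullin ligases, did not pass (0.32 ± 0.14, limma adjusted p = 0.0667), and passed at 1.18 after loess.

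Among the E3 side, 10 of 14 core genes of the cullin ligases fell and 1 rose, with a median of -0.78 (-0.31 after loess). CUL5, the cullin to which UBE2F attaches NEDD8, fell by 2.25 ± 0.19 on the log2 scale (limma adjusted p = 1.09e-06; -1.43 after loess), where UBE2F itself rose. CUL4B fell by 1.48 ± 0.16, ELOB, an adaptor of these ligases, rose by 0.61 ± 0.15 (limma adjusted p = 6.56e-06 and 0.00272), and the RING subunit RBX1 did not pass (-0.33 ± 0.18, limma adjusted p = 0.112). In the anaphase-promoting complex, the ligase of UBE2C and UBE2S, 8 of 15 genes fell and 1 rose, with a median of -0.60 (0.047 after loess). Its subunits ANAPC4 (-2.28 ± 0.33) and ANAPC10 (-2.02 ± 0.39) fell, while its activator FZR1 rose by 1.48 ± 0.18 (limma adjusted p = 7.02e-05, 0.000672 and 1.57e-05; 2.28 after loess for FZR1).

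The E3 ligases listed for DNA repair and K63-linked chains had 6 falls among 9 genes, with a median of -0.84 (-0.085 after loess). The ligase genes SHPRH (-2.75 ± 0.19) and HLTF (-1.95 ± 0.25) fell (limma adjusted p = 2.34e-07 and 2.43e-05; -1.93 and -1.26 after loess). All 7 genes measured of degradation at the endoplasmic reticulum fell, with a median of -1.28 (3 fell after loess). The largest falls were in the ligase gene MARCHF6 (-2.24 ± 0.16) and in SEL1L (-2.10 ± 0.22). With the mean of each gene's probe sets these changes were -1.10 and -1.08. Of 18 HECT and RBR ligases 15 fell and 1 rose, with a median of -1.13 (7 fell and 1 rose after loess). HACE1 (-2.85 ± 0.31) and HERC2 (-2.19 ± 0.26) fell, and RNF31, a subunit of the linear chain ligase, rose by 0.9971 ± 0.21 (limma adjusted p = 8.18e-06, 1.42e-05 and 0.00114). Of 11 genes listed for the SUMO system 8 fell and 1 rose, with a median of -0.97 (5 fell and 2 rose after loess). RANBP2 (-2.63 ± 0.22) and SENP6 (-1.71 ± 0.24) fell, and PIAS2 rose by 1.05 ± 0.18 (limma adjusted p = 1.10e-06, 5.26e-05 and 0.00028), though the mean of its 9 probe sets was -0.28.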

How the data were processed

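Expression was measured on 10 Affymetrix arrays, 5 of K562 microvesicles and 5 of K562 cells, grouped by the titles in the labels. The authors deposited RMA values for each probe set, on a log2 scale, per the submitters' processing notes. The sources used here name no version or settings of RMA. The values carry no detection call, and RMA assumes a largely shared intensity distribution, while the SD of the deposited arrays differed by group. The number of arrays limits the precision.

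Probe sets with 1 annotated gene (41091 of 54630) were kept, the brightest per gene, which gave 19777 genes. Groups were compared with limma 3.58.1 in R 4.3.3 (lmFit and eBayes, 1 mean per group, 2-sided, Benjamini-Hochberg over all genes). The fit was run on simulated data too, which carried no change that goes with level and so do not bear on the scaling. Related genes were compared by exact permutation in Python 3.11.15. The sequences came from RefSeq (GRCh38.p14), where 20 of 25 protein-coding members matched. The UBE2 genes and the lists were chosen with earlier results of these data known. Every member is named, with values of all arrays for the 6 largest rises and 6 largest falls that passed, the 4 brightest members and those whose probe sets passed in both directions. Of each list up to 2 rises and 2 falls are named, with UBB, UBA1, CDC34 and RBX1 whatever their values. Only 4 rises passed. The alternatives were a block for the replicate number, other scalings, a filter at a mean of 5, the choice of probe set, the variance model, array weights, an exact rank sum test and leaving out each array.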

Additional observations from a re-analysis of the deposited data

Results flagged for a closer look

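In 62 groups of 5 arrays (31 genes in each of 2 groups), 1 array stood far from the other 4 in 9, where chance would give about 1 in 20. A gap of over 0.71 of the range of the group counted. UBE2Q2 had 2 such arrays: microvesicles replicate 1 at 6.79 (the others 5.48 to 5.80) and cells replicate 1 at 7.81 (the others 8.08 to 8.18). In microvesicles UBE2U stood at 4.53 on replicate 2 (the others 2.13 to 2.77) and UBE2R2 at 10.12 on replicate 4 (the others 9.44 to 9.63). Cells replicate 4 was the high array for UBE2Z at 8.67 (the others 8.10 to 8.18). The same array was the low one for UBE2QL1 at 2.47, UBE2Q2P13 at 5.33 and UBE2Q2P16 at 5.14. Cells replicate 2 was low for UBE2E2-DT at 2.36.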

How the results depend on the processing

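Of the 31 UBE2 genes 4 rose and 16 fell in the deposited values. After loess by level 7 rose and 3 fell, after a second quantile normalization 8 and 3, and without genes whose mean is under 5 the rises were 2, because UBE2E2 and UBE2U were left out. Without any 1 array the rises were 3 to 6 and the falls 15 to 16. Without microvesicles replicate 4 there were 6 rises. The 6 pairs of relatives that differed became 3 after loess and 3 after quantile normalization, and stayed 6 without any 1 array. The replicate number as a block gave 4 rises and 15 falls, UBE2E1 being lost. For the pairs the block, a sign-flip test within numbers, gave 0, since its smallest p is 0.0625 and it cannot pass. Whether the numbers mark shared experiments is not stated in the labels and was not settled: same-numbered arrays correlated between -0.028 and 0.12 in their deviations, and 3 of 5 microvesicle arrays correlated best with the cells of their own number.

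Signs that turned after loess were those of UBE2DNL (-0.44), UBE2O (0.0032), UBE2B (0.52), UBE2C (-0.025), UBE2E3 (0.073), UBE2Z (0.15), UBE2H (0.064), UBE2J2 (0.61), UBE2QL1 (-0.22), UBE2E2-DT (-0.10), RBX1 (0.21) and the pairs UBE2E1-UBE2E3 (-0.12) and UBE2E2-UBE2E3 (-0.069). After quantile normalization they were UBE2DNL (-0.36), UBE2O (0.0069), UBE2B (0.48), UBE2E3 (0.033), UBE2Z (0.19), UBE2H (0.10), UBE2J2 (0.64), UBE2QL1 (-0.094), UBE2D3-AS1 (0.020), UBE2E2-DT (-0.043), RBX1 (0.18) and UBE2E1-UBE2E3 (-0.068). With the mean of probe sets they were UBE2O (0.22), UBE2J1 (-0.23), UBE2D4 (-0.010), UBE2R2 (-0.21), UBE2J2 (0.53), PIAS2 (-0.28) and UBE2J1-UBE2J2 (-0.76). With the brightest probe set of the plain type they were UBE2B (1.17), UBE2J1 (-0.89), UBE2J2 (0.85), PIAS2 (-0.95) and UBE2J1-UBE2J2 (-1.74). Leaving out 1 array turned 4 small changes: UBE2B (range -0.11 to 0.040, above 0 without microvesicles replicate 2 or 5), UBE2D4 (-0.0083 to 0.20, below 0 without microvesicles replicate 4), UBE2D3-AS1 (-0.28 to 0.31, above 0 without microvesicles replicate 3 or 5 or cells replicate 4) and UBE2G1-UBE2G2 (-0.18 to 0.019, above 0 without microvesicles replicate 2). The cause was not tested.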

Other observations

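UBE2V1, the other partner of UBE2N, is annotated in these arrays only on probe sets that carry PEDS1 and further symbols as well, and 4 such probe sets were left out above. Tested over all probe sets, 3 of the 4 were lower in microvesicles and passed, with changes of -1.01 ± 0.17, -0.85 ± 0.28 and -0.50 ± 0.16 (limma adjusted p = 0.000225, 0.0194 and 0.0142), and 1 did not (-0.42 ± 0.18, limma adjusted p = 0.0546). They cannot be given to 1 gene.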
